A study of Mus musculus with 4 samples.

Results

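The ribosomal protein genes encode the proteins that, with rRNA, form the cytosolic ribosome. They were taken as the symbols beginning with Rpl or Rps followed by a number and at most a short suffix, together with Rplp0, Rplp1, Rplp2 and Rpsa, with at least 100 UMIs over both libraries and without pseudogenes and S6 kinases. Of 32285 features in the count tables, 83 symbols matched and 81 were kept, 49 of the large subunit and 32 of the small subunit. The rule used no difference between libraries or cells. The excluded symbols were Rpl10l, with 0 UMIs, and Rpl39l, with 50. The members kept with the fewest UMIs were Rpl3l with 478, Rpl7l1 with 2543 and Rps27l with 10205.

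Hepatic CD4+ T cells were sorted by flow cytometry from mice in which a high-fat diet lacking choline (CD; 60 kcal% fat, 0.1% methionine) had induced steatohepatitis. The mice were WT or carried floxed Nr4a1 and Nr4a2 alleles deleted by Cd4Cre (Nr4a1 fl/fl Nr4a2 fl/fl Cd4Cre, dKO), a driver active from the CD4+CD8+ thymocyte stage and therefore in the T cells of these animals. The diet was shared by both genotypes, and the pooled mice were males by the study's methods. Cells of 2 mice were pooled per genotype and gave 1 RNA library and 1 T cell receptor (TCR) table each, so no difference between genotypes has a replicate check, no test was run, and differences of genotype, mouse, preparation and sequencing cannot be told apart. All intervals below are exact 95% intervals that cover counting error only.

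After filtering, 10556 cells with 23437516 UMIs were kept in the library labelled WT and 17462 cells with 37794986 UMIs in the library labelled dKO, with medians of 1679 and 1685 UMIs per cell, and 242 barcodes occurred in both. The deleted genes went against the labels: in T cells, Nr4a1 stood at 737 CPM (UMIs per 1000000 UMIs) in the library labelled WT and 1942 in that labelled dKO, and Nr4a2 at 200 and 437. Nr4a1 stood at 610 and 1280 CPM in pDC and at 707 and 594 in myeloid cells, and the Treg gene Foxp3 at 52.7 and 266 CPM in T cells. The counts do not show which exons were read, so a transcript without the floxed exon would still be counted, and directions below are given for the libraries as labelled. The gates also showed cells other than CD4+ T cells: 9.94% and 17.8% of cells passed the gate for plasmacytoid dendritic cells (pDC, at least 2 UMIs of Siglech), and 1.81% and 1.45% the myeloid gate. Hepatocyte genes (Alb, Apoa1, Apoa2, Ttr, Serpina1a) summed to at most 12.1 CPM in any gated class.

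A eukaryotic ribosome contains one copy of most of its proteins, and cells make these proteins in balanced amounts because unassembled subunit proteins are degraded. Many of the mRNAs begin with a cytosine followed by a run of pyrimidines, the 5′ terminal oligopyrimidine (TOP) tract, through which LARP1 and mTOR signalling adjust their translation and stability. Naive T cells keep a large stock of such mRNAs while their protein synthesis is low, and activation starts both ribosome production and translation. The share of these genes among all mRNA molecules is therefore a common descriptor of T cell states, but it is a share: a higher share and fewer other mRNAs per cell look the same in these counts.

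The starts of some genes that the results turn on are shown first, because the TOP tract is the sequence feature that the family is known for. Each line gives 30 bases around the annotated transcript start of RefSeq on GRCm38.p6, 10 before and 20 from the start on, on the gene's strand, 5′ to 3′. Capitals mark a run that begins with C, at most 5 bases from the start, and continues with at least 4 further C or T. A run exactly at the start was taken first, and otherwise the longest run. Rpl35, Rps27 and Rplp2 are shown as starts with the run exactly at the start, Rps27l as the paralog of Rps27, Rpl31 and Rpl13a as genes with a run beside the start, and Rps12, Rpsa and Rpl3l as genes without one.
Rpl35 (chr2:39005112-39005141, minus strand): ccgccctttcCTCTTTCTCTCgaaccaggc
Rps27 (chr3:90213629-90213658, minus strand): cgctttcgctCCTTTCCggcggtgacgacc
Rplp2 (chr7:141447641-141447670, plus strand): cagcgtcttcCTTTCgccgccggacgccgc
Rps27l (chr9:66946076-66946105, plus strand): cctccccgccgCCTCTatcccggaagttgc
Rpl31 (chr1:39367841-39367870, plus strand): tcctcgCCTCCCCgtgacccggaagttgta
Rpl13a (chr7:45128726-45128755, minus strand): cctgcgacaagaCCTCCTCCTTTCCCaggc
Rps12 (chr10:23787190-23787219, minus strand): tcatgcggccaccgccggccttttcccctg
Rpsa (chr9:120127756-120127785, plus strand): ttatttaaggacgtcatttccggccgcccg
Rpl3l (chr17:24727816-24727845, plus strand): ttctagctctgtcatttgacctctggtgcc

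A start window was found for 61 of the 81 members. The run began exactly at the annotated start in 13 of them (21.3%), against 813 of 27025 genes with a window (3.01%). Within 5 bases of the start it was present in 29 members (47.5%) and in 21.2% of all genes. Of 12 translation factors and other genes known for TOP tracts that had a window, 4 had the run at the start, and of 26 ribosome biogenesis genes 0 did. A missing match says only that these letters are not in the window of the annotated start.

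The family was among the most abundant in the libraries. All 81 members had UMIs in both, 69 and 70 stood at 1000 CPM or more over all cells, and 2 were under 100 CPM (Rpl3l and Rpl7l1). The 10 highest members together held 22.5% and 22.4% of the family's UMIs, so no few genes dominated it. Rps24 was the highest at 7120 and 5928 CPM, and Rpl13, Rpsa, Rps15a and Rps16 followed in the library labelled WT. Reads of these mRNAs can be divided with near-identical copies elsewhere in the genome: Rps27rt, a processed copy of Rps27, held 1798 and 1821 UMIs, Rpl10-ps3 held 677 and 1406 and Rpl9-ps6 held 318 and 772, and values of Rps27, Rpl10 and Rpl9 carry this uncertainty.

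The share of a cell's UMIs taken by the 81 genes depended first on the class of the cell. Cells were gated by marker UMIs (CD3 genes or a TRB contig for T cells, then cycling genes, Foxp3, Ifng or Il17a, and naive T cell markers including Ccr7 and Lef1 for cycling, Treg, effector and naive-like cells in that order). In the library labelled WT the summed share was 29.8% in naive-like cells, 21.8% in other T cells, 20.0% in effector cells, 19.7% in Treg, 17.0% in pDC, 16.6% in cycling cells and 15.5% in myeloid cells. In the library labelled dKO the order was 29.5% in naive-like, 21.3% in effector, 20.1% in other T, 19.5% in cycling, 18.1% in Treg, 17.1% in pDC and 13.4% in myeloid cells. Naive-like cells were at the top and myeloid cells at the bottom of both libraries, whereas the classes between them changed places. B cells, 28 and 31 cells, held 25.5% and 24.5%.

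Single cells spread widely within a class. In naive-like cells of the library labelled WT the share ran from 0.622% to 57.0% with a median of 31.1% and the quartiles at 24.8% and 36.5%, and effector cells had a median of 18.9%. The matching medians in the library labelled dKO were 30.4% and 21.0%. pDC were tighter, with an SD between cells of 5.24 and 3.15 percentage points, against 8.58 and 8.73 in naive-like cells. The counting intervals of the summed shares were at most 0.2 points wide in all 7 classes other than the myeloid one of the library labelled WT. They do not cover the depth of the cells, on which the pDC value depended: in the library labelled WT the median share of pDC and of all T cells was 22.2% and 21.8% at 500 to 1000 UMIs per cell, 21.3% and 21.4% at 1000 to 2000, 15.4% and 21.4% at 2000 to 4000, and 15.1% and 19.6% above. In the library labelled dKO, where 7 pDC had under 1000 UMIs, pDC and T cells stood at 18.0% and 18.8%, 17.3% and 19.8%, and 16.4% and 20.2% in the 3 deeper bins. T cells of that library stood at 16.9% at 500 to 1000 UMIs. Naive-like cells stood above effector cells in all 4 bins of both libraries.

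**Figure D1:**
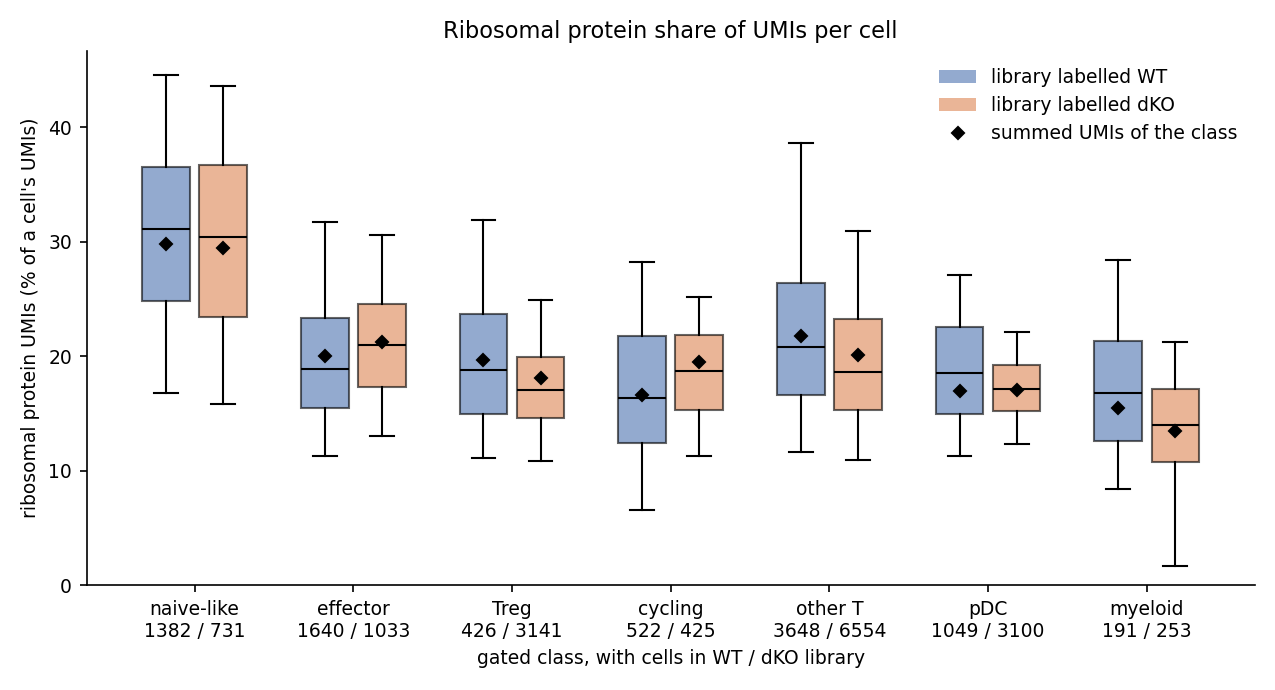
Ribosomal protein UMIs as a percent of each cell's UMIs (y axis) in the gated classes (x axis, with cell numbers), by library. Boxes span the quartiles of the cells and whiskers the central 90%, and diamonds mark the summed UMIs of the class: naive-like cells stand highest in both libraries, at 29.8% and 29.5%.

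A tail of droplets had almost none of these mRNAs. Under 5% ribosomal protein UMIs were found in 309 droplets of the library labelled WT (2.93%) and in 402 of the library labelled dKO (2.30%). In them the family held 1.88% and 1.34% of UMIs, whereas the nuclear RNA Malat1 stood at 15097 and 18144 CPM, against 6605 and 6579 CPM in the remaining droplets. A TRB contig was found in 7.77% and 1.74% of them, against 33.5% and 24.0% of the rest. The tail was unevenly spread: 28 of 253 myeloid droplets of the library labelled dKO belonged to it (11.1%), and 0 of 1033 effector droplets of that library, which allows a share of up to 0.290%. Without these droplets the T cell log2 ratio, library labelled dKO over WT, was −0.15, whereas the pDC ratio changed sign and the myeloid ratio moved towards 0. The part of the tail in these differences was not tested.

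The T cells as a whole held 22.2% in the library labelled WT and 20.2% in that labelled dKO, a log2 ratio of −0.14 [−0.14, −0.14]. This difference depended on depth. The median shares of T cells in the libraries labelled WT and dKO were 21.8% and 16.9% at 500 to 1000 UMIs. They were 21.4% and 18.8% at 1000 to 2000, and 21.4% and 19.8% at 2000 to 4000. Above 4000 UMIs the direction turned, with 19.6% and 20.2%. Class by class the log2 ratio of the summed shares took both signs. It was −0.02 [−0.02, −0.01] in naive-like cells, −0.12 [−0.12, −0.11] in other T cells and −0.13 [−0.13, −0.12] in Treg, whereas it was 0.09 [0.08, 0.09] in effector cells and 0.23 [0.22, 0.23] in cycling cells. The Treg difference was seen in cells under 2000 UMIs: the median share in the libraries labelled WT and dKO was 20.1% and 16.3% in Treg of 500 to 1000 UMIs and 18.7% and 16.4% at 1000 to 2000, but 18.0% and 18.2% at 2000 to 4000 and 19.6% and 19.7% above. In effector cells the medians were 19.2% and 19.1% in the shallowest cells and 18.2% and 21.2%, 19.1% and 20.9%, and 20.2% and 21.4% in the deeper bins. Cycling and other T cells were not divided by depth. Cycling cells had medians of 3634.5 and 4947 UMIs in the libraries labelled WT and dKO, and 3.83% and 1.41% of them had under 5% ribosomal protein UMIs. Over the alternatives the ratio ran from −0.05 to −0.01 in naive-like cells, from −0.17 to −0.06 in Treg and from 0.06 to 0.16 in effector cells. The cycling ratio ran from 0.12, as a mean over cells, to 0.31, after TMM scaling, and that of other T cells from −0.19, as a mean over cells, to −0.04, with T cells taken by TRB contig. Outside the T cells it was 0.01 in pDC (17.0% and 17.1%), where the sign turned to −0.0023 without droplets under 5% and to −0.13 as a mean over cells. In myeloid cells it was −0.21 [−0.22, −0.19], and −0.13 without droplets under 5% and −0.35 as a mean over cells. The myeloid droplets of the library labelled dKO also held 12108 CPM of the neutrophil genes S100a8 and S100a9, against 21.7 CPM in the library labelled WT, and the part of these cells in the myeloid ratio was not tested. The same genes stood at 132 CPM in effector cells of the library labelled dKO and 3.05 CPM in those of the library labelled WT, and their part in the effector ratio was not tested.

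The makeup of the T cells also differed between the libraries. Naive-like cells, the class with the highest share, were 18.1% of T cells in the library labelled WT and 6.15% in that labelled dKO. Treg, a class with a lower share, were 5.59% and 26.4%, effector cells 21.5% and 8.69%, cycling cells 6.85% and 3.58%, and other T cells 47.9% and 55.1%. When the classes of the library labelled dKO were weighted as in the library labelled WT, an alternative chosen after the data were seen, the T cell log2 ratio was −0.0064 in place of −0.14.

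The TCR tables gave a division by the sequence of the TRB chain, for T cells in which a chain was assembled. T cells with 1 productive TRB chain were grouped by how many T cells of the library carried the same chain. In the library labelled WT the family held 25.5% of UMIs in the 1603 cells with a chain of their own, 19.5% in 416 cells of clones of 2 to 4 cells and 18.0% in 1000 cells of clones of 5 cells or more. In the library labelled dKO the shares were 23.0%, 19.9% and 18.1%, from 1403, 736 and 1453 cells. The order was the same in both libraries, although single cells were lower in the library labelled dKO.

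Cells of a clone are not independent, so the share was also averaged over clones. The mean over clones of the library labelled WT was 26.1% ± 9.0 (SD, n = 1603) for single cells, 20.0% ± 4.2 (SD, n = 166) and 18.5% ± 2.3 (SD, n = 70), and that of the library labelled dKO 23.4%, 19.7% and 18.7% over 1403, 299 and 89 clones. The median depth of the cells across the 3 sizes was 2180, 2211 and 2001 UMIs in the library labelled WT and 1783, 1724 and 1489 in the library labelled dKO, lowest in the largest clones of both, and its part in the shares was not tested. Within effector cells alone the shares were 21.9%, 20.4% and 18.6% in the library labelled WT and 22.9%, 21.0% and 19.4% in the library labelled dKO. Cycling cells gave 18.5%, 17.5% and 15.0%, and 20.5%, 19.4% and 18.4%. The order was not kept in every gate: Treg of the library labelled WT stood at 20.6%, 17.6% and 18.9%, from 134, 21 and 17 cells, and naive-like cells at 31.3%, 21.5% and 24.1%, from 569, 30 and 32 cells, and at 30.9%, 21.5% and 23.7% in the library labelled dKO, from 202, 17 and 20 cells.

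**Figure D2:**
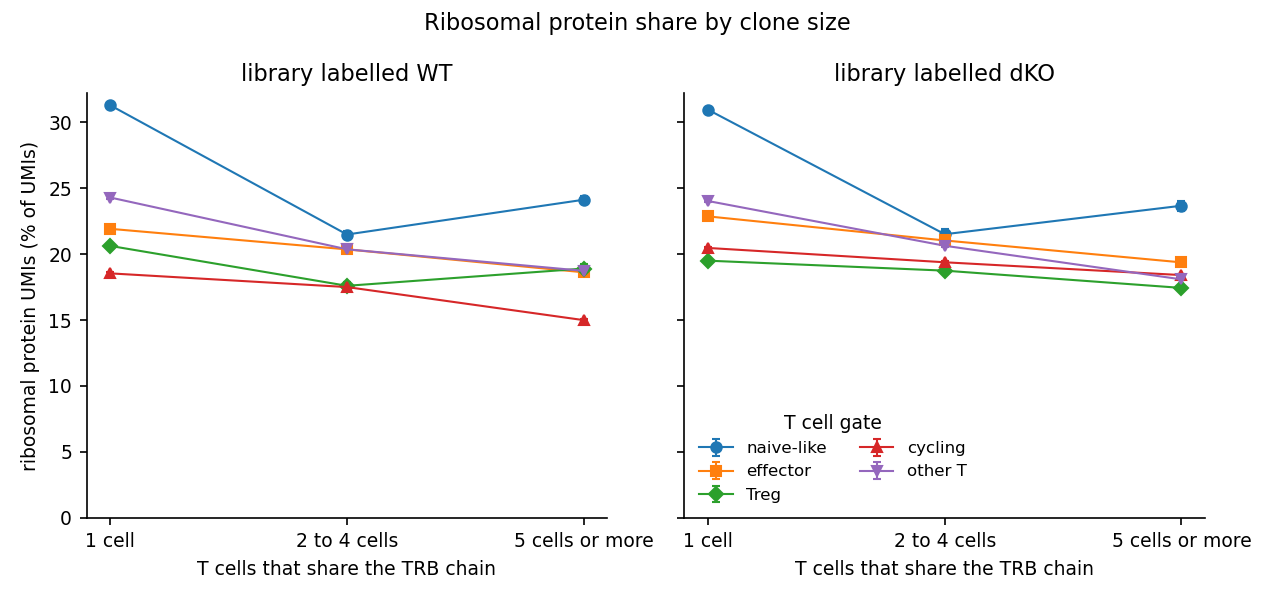
Ribosomal protein share of UMIs (y axis) against the number of T cells of a library that share a TRB chain (x axis), by T cell gate and library; bars are exact 95% intervals for counting error. In every gate the share is highest in single cells. It is lowest in clones of 5 cells or more, except in naive-like cells of both libraries and in Treg of the library labelled WT.

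Naive-like cells were compared with effector cells within each library, which asks how evenly the family differs between T cells gated on naive and on cytokine genes. A member was counted as higher or lower where its log2 ratio of CPM was at least 0.5 in size, a fold of 1.41, among genes with at least 50 CPM in 1 of the sums and 10 UMIs or more in the smaller one. This rule takes the place of a test. Of 79 members that passed this filter, 50 were higher and 0 lower in the library labelled WT and 29 were higher and 0 lower in the library labelled dKO, and the 29 were among the 50. Of all genes, 6.07% and 7.43% were higher. The median member ratio was 0.56 and 0.44, and the median of all genes −0.17 and −0.13. The effector gate rests on 1 UMI of Ifng or Il17a and the naive-like gate on 2 of naive markers including Ccr7 and Lef1, none of them a member.

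At the top stood Rps20, a protein of the small-subunit head. It had 6828 CPM in naive-like and 3371 in effector cells of the library labelled WT, and 6687 and 3548 in the library labelled dKO, log2 ratios of 1.02 [0.99, 1.05] and 0.91 [0.87, 0.96]. Rpl36a, a large-subunit protein near the exit site for tRNA, had 0.94 and 0.77. Rps19, the gene most often mutated in Diamond-Blackfan anaemia, had 0.86 and 0.71, and Rpl35, which lies by the tunnel through which the new chain leaves, 0.83 and 0.68. Rps29 came next in the library labelled WT at 0.82, and Rpl12, a protein at the base of the stalk, was next to Rps20 in the library labelled dKO at 0.77.

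At the other end the ratios were smaller, although above 0 beyond counting error in all members but Rps27l that are named here. Rpl13a, which can leave the ribosome to silence mRNAs in interferon-γ-treated myeloid cells, had ratios of 0.22 and 0.19. Rpl27 had 0.24 and 0.12, and Rpl24, part of a bridge between the subunits, 0.24 and 0.17. Rpl29 had 0.24 in the library labelled WT and Rpl38 0.20 in the library labelled dKO. Rps27l was below 0 with −0.20 [−0.46, 0.06] and −0.26 [−0.57, 0.04], intervals that include 0. The small subunit as a sum had ratios of 0.62 and 0.53 and the large subunit 0.53 and 0.42, so both subunits were higher in naive-like cells.

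**Figure D3:**
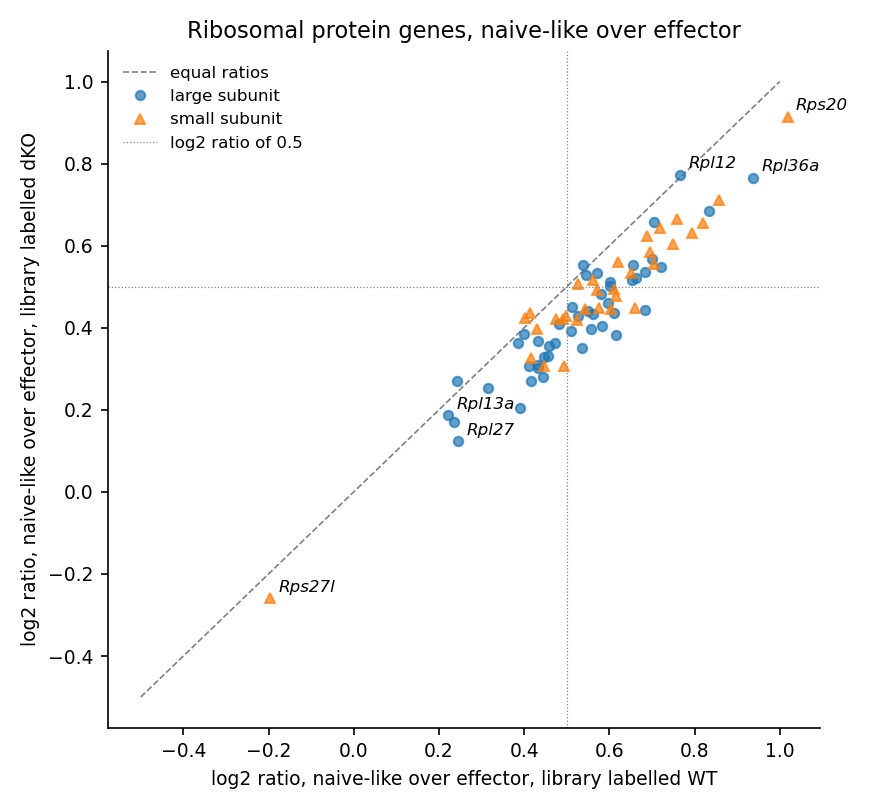
Log2 ratio of CPM, naive-like over effector cells, of each ribosomal protein gene in the library labelled WT (x axis) and in the library labelled dKO (y axis), by subunit; dotted lines mark 0.5 and the dashed line equal ratios. Of 79 members, 78 lie above 0 in each library, with Rps20 at the top and Rps27l below 0.

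Genes that work with the ribosome were followed from lists. Of 19 translation factors and other TOP mRNAs, 3 were higher in naive-like cells in the library labelled WT, among them Eef1b2 at 0.73 and Npm1 at 0.56, and 2 in the library labelled dKO (Eef1b2 0.56, Npm1 0.52), with medians of 0.23 and 0.21 and none lower. Nap1l1, a histone chaperone, was at the bottom of the list with −0.34 and −0.38. Fau, which encodes a ribosomal protein fused to a ubiquitin-like sequence and which the symbol rule does not take, had 0.22 and 0.14. Of 11 ribosome biogenesis genes that passed the filter, 2 were higher in the library labelled WT, Gnl3 at 0.70 and Nop56 at 0.55, and 0 in the library labelled dKO. Of all genes, 6.07% and 7.43% were higher in naive-like cells of the libraries labelled WT and dKO. Mitochondrial ribosomal proteins, which build a separate ribosome, had medians of −0.07 over 30 genes and −0.18 over 34, with 1 higher and 1 lower (Mrpl30 0.53, Mrpl33 −0.56) in the library labelled WT and 1 lower (Mrps26 −0.71) in the library labelled dKO, where 19.5% and 16.0% of all genes were lower. Of 9 genes of mTOR signalling and translation control, Rptor was lower in both, at −0.67 and −0.70, and Eif2ak3 was higher at 0.51 in the library labelled dKO alone of the 2.

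Cycling cells had a lower summed share than effector cells, with ratios of −0.27 and −0.13, and few members passed the size. Against effector cells, 2 were higher and 11 lower of 79 in the library labelled WT, where 19.7% of all genes were higher and 14.4% lower, and 4 higher and 4 lower in the library labelled dKO, where 20.8% and 19.6% were. Rps27 stood at 1526 CPM in cycling and 3193 in effector cells of the library labelled WT and at 1118 and 2513 in the library labelled dKO, ratios of −1.07 [−1.12, −1.01] and −1.17 [−1.24, −1.10]. Rps24 had −0.68 and −0.57, Rpl30 −0.65 and −0.62, and Rps21 −0.61 and −0.64, and these 4 were the members lower in both libraries. Rps27l was among the members higher in both, at 1.26 and 1.38. Rpl28, with 0.40 and 0.54, and Rps2, a small-subunit protein at the mRNA entry channel, with 0.30 and 0.51, passed the size in the library labelled dKO. With the summed ratio subtracted, the SD between members was 0.31 and 0.35, against 0.86 and 0.83 between all genes.

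Mitochondrial ribosomal proteins took the other direction in cycling cells: 19 of 40 were higher in the library labelled WT and 26 of 48 in the library labelled dKO, with medians of 0.49 and 0.54 against −0.001 and −0.02 over all genes. Of all genes, 19.7% and 20.8% were higher. Mrpl18 had 1.11 and 1.57 and Mrpl28 1.05 and 1.44, and Mrpl24 was the lowest at −0.61 and −0.51. The nucleolar gene Nhp2, a subunit of the particles that pseudouridylate rRNA, had 0.86 and 1.24 and Nop58 0.70 and 0.58. Among 19 TOP mRNAs, Nap1l1 alone was higher in both libraries, at 1.31 and 1.20, and Fau was the lowest at −0.47 and −0.55.

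Treg and effector cells differed in few members, and their summed shares had log2 ratios of −0.02 and −0.24. Of 79 members, 1 was higher and 0 lower in the library labelled WT, where 15.5% of all genes passed in either direction, and 1 higher and 1 lower in the library labelled dKO, where 18.8% did. Rps27l was the higher one in both, at 0.79 [0.48, 1.09] and 0.70 [0.50, 0.91]. Rpl13a was the lowest in both, at −0.33 [−0.40, −0.27] and −0.56 [−0.61, −0.52].

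Between libraries, few members differed by the size used. In T cells, 1 of 79 was higher in the library labelled dKO and 2 were lower, whereas 20.7% of all 3606 genes that passed the filter differed by this size in either direction. The median member stood at −0.13, 63 of the 79 were below 0, and the median gene stood at 0.03. Rps29, a small zinc-binding protein, had 2241 CPM in the library labelled WT and 1500 in that labelled dKO, a ratio of −0.58 [−0.60, −0.56]. Rps27, another zinc-binding protein of the small subunit, had 3294 and 2290, a ratio of −0.52 [−0.54, −0.51], and its copy Rps27rt had −0.57. After the ratio of the summed members was subtracted, 1 member was beyond 0.5, Rps27l, against 20.4% of all genes centred on their median gene.

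Next lowest were Rpl4 at −0.48, Rps13 at −0.46 and the stalk anchor Rplp0 at −0.42, and the highest after Rps27l were Rpl7a at 0.24, Rps12 at 0.20, Rpl27 at 0.16 and Rplp2 at 0.16. The proteins of the stalk, which recruits elongation factors, differed in direction: Rplp0 had 4222 and 3160 CPM in the libraries labelled WT and dKO, whereas Rplp1 had 3910 and 4150 and Rplp2 2430 and 2716. Summed by subunit, the ratio was −0.11 for the large and −0.17 for the small subunit. With the classes weighted as in the library labelled WT, only Rps27l passed the size.

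The counts in the single classes were equally small. In naive-like cells 1 member was higher and 0 lower (13.7% of all genes passed), in effector cells 1 and 0 (19.0%), in Treg 1 and 2 (23.1%), in other T cells 1 and 2 (20.0%), in cycling cells 3 and 0 (20.9%), in pDC 0 and 0 (8.95%) and in myeloid cells 0 and 5 (25.4%). The pDC count leaves out Rpl3l, which had 7 UMIs in pDC of the library labelled WT and so did not pass the filter. The single higher member of the naive-like, effector, Treg and other T gates was Rps27l. In cycling cells Rps12 at 0.61 [0.56, 0.66] and Rps26 at 0.52 [0.47, 0.57] joined it. The 5 lower members of myeloid cells were Rpl37a at −0.71, Rps27 at −0.60, Rps18 at −0.58, Rps28 at −0.52 and Rps29 at −0.52. The Treg gate held Rpl4 at −0.54 and Rps13 at −0.51, and other T cells Rpl4 at −0.52 and Rps13 at −0.50.

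What the classes shared was an order within the family. With the ratio of the summed members subtracted in each class, 18 of the 79 members were below the set in all 7 classes and 20 above it in all 7. The same count against the median gene, over the 2072 genes that passed the filter in every class, gave 12.5% below and 14.6% above in all 7. The classes are separate cells but come from the same pair of libraries, so they are not replicates. Rps27 ran from −0.68 to −0.28 and Rps29 from −0.47 to −0.31. Rps12, a protein of the small-subunit beak, ran from 0.12 to 0.40, and Rplp2 from 0.15 to 0.35. Others below the set in all 7 were Rpl39, Rpl37a, Rpl4, Rps28, Rps13, Rps18 and Rplp0, and others above it Rpl7a, Rps15, Rpl27 and Rplp1. The run was found at the annotated start in 6 of 16 members below and 3 of 16 above that had a window, and within 5 bases of it in 7 and 9, so the measures differ in direction. Spearman's rho between mRNA length and the centred ratio, across members, ran from −0.11 to 0.09 over the 7 classes.

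**Figure D4:**
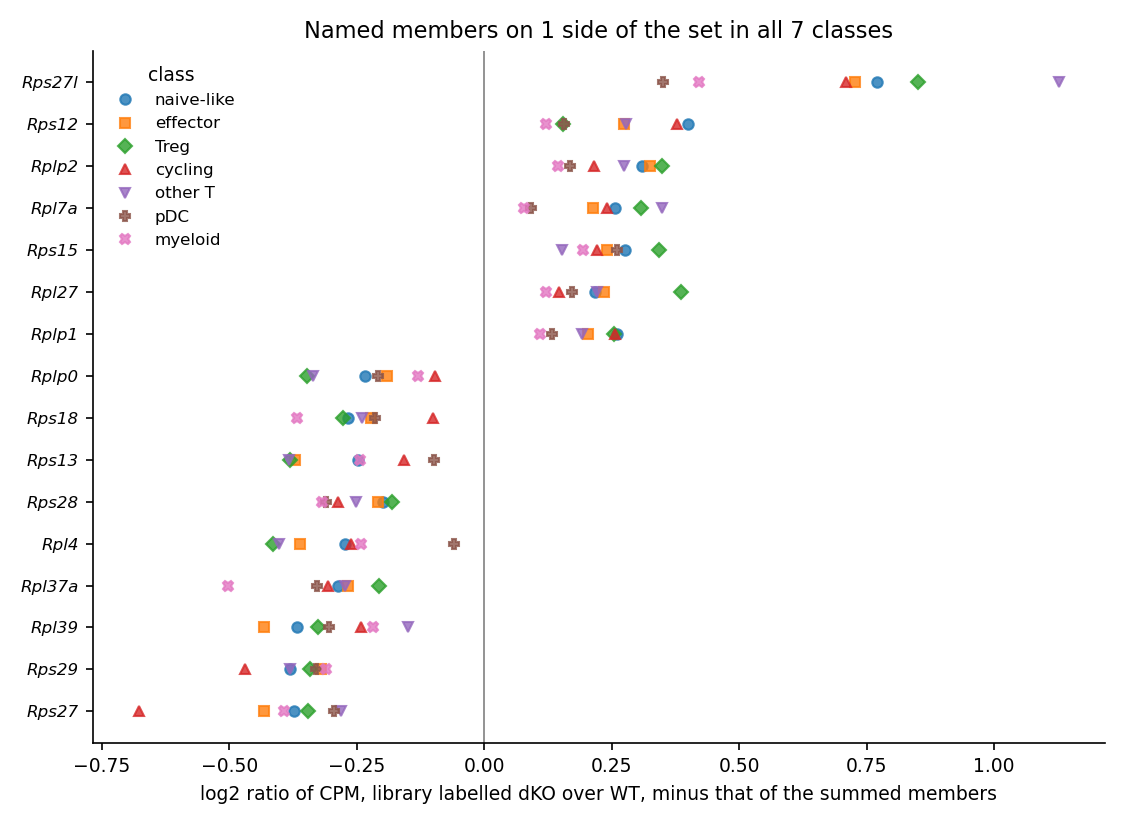
The members named in the text that lie on 1 side of the set in all 7 gated classes (y axis) and their log2 ratio of CPM, library labelled dKO over WT, minus that of the summed members (x axis); each symbol is a class. Rps27 and Rps29 are at the low end and Rps27l at the high end; the members shown were selected by this measure.

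pDC, which make type I interferon, and myeloid cells had lower summed shares than T cells, and a few members stood apart from that difference. Of 80 members, 3 were higher and 29 lower in pDC than in T cells of the library labelled WT, against 26.6% and 31.1% of all genes, and 2 higher and 14 lower in the library labelled dKO, against 26.0% and 29.9%. Rpl31, a protein at the tunnel exit, was the extreme: it had 1966 CPM in pDC and 584 in T cells of the library labelled WT and 2014 and 562 in the library labelled dKO, ratios of 1.75 [1.70, 1.80] and 1.84 [1.81, 1.87]. In the other gated classes, myeloid cells included, Rpl31 lay between 477 and 845 CPM, so the pDC values did not overlap with any of them. Rpl10, an X-linked protein that joins the large subunit late, was higher too, at 0.72 and 0.98, with 3119 and 3680 CPM in pDC. Jchain and Mzb1, which also mark plasma cells, summed to 124 and 259 CPM in the pDC gate.

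Lower in pDC of both libraries were 14 of 80 members, where 31.1% and 29.9% of all genes were lower in the single libraries. The share of all genes lower in both libraries was not counted, for pDC or for the myeloid cells below. Rpsa, also described as a laminin receptor, had 2530 CPM against 5475 in T cells of the library labelled WT and 2653 against 4841 in the library labelled dKO, ratios of −1.11 and −0.87. Rpl12 had −1.09 and −0.89 and Rps19 −0.90 and −0.80. In myeloid cells 1 member was higher and 44 lower of 79 in the library labelled WT, where 36.1% of all genes were lower, and 1 and 53 in the library labelled dKO, where 37.7% were. The lower ones shared by both libraries numbered 42, led by Rpl13a at −1.28 and −1.19, Rpl12 at −1.16 and −1.19, Rps15a at −1.16 and −1.12, Rps27 at −1.04 and −1.12 and Rpsa at −0.99 and −1.06. The higher one was Rps27l, at 1.45 and 0.61. After the ratio of the summed members was subtracted, 5 members were higher and 3 lower in pDC of the library labelled WT and 7 and 3 in that labelled dKO, and in myeloid cells 6 and 4, and 4 and 4. Of all genes, centred on their median gene, 56.2% and 55.0% passed in either direction in pDC and 58.4% and 58.1% in myeloid cells. Rpsa, Rpl12 and Rps19 in pDC, and Rpl13a, Rpl12, Rps15a and Rps27 in myeloid cells, were the members lower after this in both libraries.

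Rps27l, the paralog of Rps27 that p53 is known to induce, stood apart from the family in several comparisons. In T cells it had 90.8 CPM in the library labelled WT and 188 in that labelled dKO, a ratio of 1.05 [0.97, 1.14]. Its CPM in the libraries labelled WT and dKO were 62.9 and 106 in naive-like, 72.1 and 127 in effector, 82.2 and 166 in other T, 125 and 206 in Treg and 173 and 331 in cycling cells. It was higher in the library labelled dKO in each of these gates, by folds of 1.69, 1.76, 2.01, 1.65 and 1.92, and in pDC by 1.28 (177 and 226 CPM). In myeloid cells it had 249 and 288 CPM, and the interval of the log2 ratio, [−0.13, 0.56], included 0.

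At least 1 UMI of Rps27l was found in 15.5% and 23.5% of T cells, and, after each cell was thinned to 2000 UMIs, in 14.8% of 3053 and 30.8% of 2999 cells. Cycling cells showed the highest shares of the T cell gates, 43.1% and 70.4%, at medians of 3634.5 and 4947 UMIs, and thinned 26.4% and 40.9%. No gated class lacked the gene, so a level of free RNA could not be read from these shares. Per 100 UMIs of Rps27, T cells held 2.76 and 8.22 UMIs of Rps27l, and cycling cells 11.3 and 29.6. Cells with more than 10 UMIs of it were few, 1 and 5, all in the cycling gate, and the T cell ratio was 1.05 without them.

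Rpl3l, the paralog of Rpl3 known from heart and skeletal muscle, had 14 UMIs over all cells of the library labelled WT and 464 over those of the library labelled dKO. Of these, 358 were in pDC, found in 329 of 3100 pDC (10.6%), against 7 UMIs in 1049 pDC of the library labelled WT (0.667%). The level in pDC was 2.73 [1.10, 5.63] and 37.6 [33.8, 41.8] CPM, a fold of 13.8 [6.62, 34.5]. After thinning to 2000 UMIs, 2 of 503 (0.398%) and 205 of 2838 pDC (7.22%) held a UMI. T cells held 0 UMIs in 7618 cells, which allows up to 0.0394% of cells with a UMI and sets no limit on cells that express the gene, and 4 UMIs in 11884 cells. At the same depth of 2000 UMIs, 0 of 3053 and 1 of 2999 T cells held one. No cell held more than 3.

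The genes around Rpl3l on chromosome 17 did not share this difference in pDC: the ratios were 0.18 for Msrb1, 0.02 for Ndufb10 and 0.01 for Rps2, with intervals that included 0. Rpl3 itself had −0.12 in pDC. Droplets with markers of both T and pDC or myeloid cells held 2 and 84 UMIs of Rpl3l. With 14 UMIs in the library labelled WT and 464 in that labelled dKO, Rpl3l met the minimum of 100 UMIs only through the library where it was high. The fold above therefore describes a gene taken into the set by that library, which is 1 library of 2 pooled mice.

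**Figure D5:**
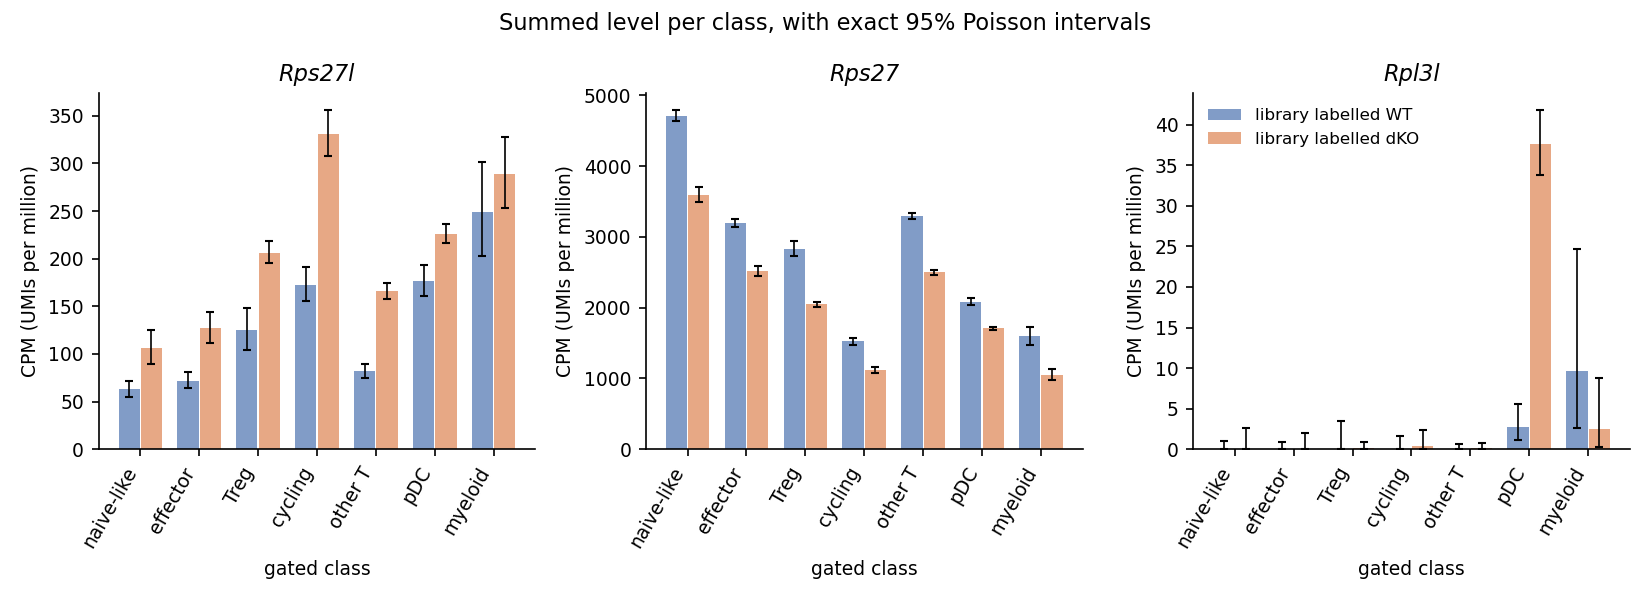
Summed level in CPM (y axis, from 0) of Rps27l, Rps27 and Rpl3l in the gated classes (x axis) of both libraries, with exact 95% Poisson intervals. Rps27l is higher in the library labelled dKO in the T cell gates, and Rpl3l is at 37.6 CPM in pDC of that library and at most 9.66 in the classes of the library labelled WT.

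Other paralog pairs moved less between the libraries. Rpl22l1, the paralog of Rpl22, had 42.1 and 35.5 UMIs per 100 of Rpl22 in T cells and 46.1 and 51.9 in pDC. Rpl36al, an expressed copy of Rpl36a whose symbol the rule does not match, had 70.2 and 86.0 per 100 of Rpl36a in T cells and 146 and 209 in pDC. Rpl7l1 had 2.23 and 2.74 per 100 of Rpl7 in T cells. Reads of the pairs could be divided between their members by the alignment, so these ratios are uncertain where the sequences are near-identical.

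Across the 14 sums of 7 classes and 2 libraries, the level of most members followed that of the family, of which each is a part. The Pearson correlation of log2(CPM + 1) with the log2 share was at least 0.8 in 59 of 81 members, with a median of 0.90. Exceptions were Rps27l at −0.74, Rpl3l at −0.52, Rpl7l1 at −0.29, Rpl31 at 0.01 and Rpl10 at 0.08. Among 3103 other genes with at least 100 CPM in a sum, the most similar were Eef1b2 (0.96), Eef1a1 (0.93), Dapl1 (0.93), Nsg2 (0.91), Satb1 (0.91), Dusp10 (0.90), Crlf3 (0.89), Nsa2 (0.89), Tpt1 (0.89) and Rack1 (0.88). Eef1b2, Eef1a1, Tpt1 and Rack1 are TOP mRNAs, and Rack1 is a protein of the small subunit. Fau had 0.72. Dapl1 and Nsg2 were at 0 CPM in their lowest sum and at 160 and 104 in their highest, so the floor is part of their correlation. The naive-like shares of 29.8% and 29.5% stood apart from the other sums, at most 21.8%, so these 2 points weigh heavily. The 14 sums share 2 libraries and differ in depth, so these values describe the sums.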

How the data were processed

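Hepatic CD4+ T cells of WT and dKO mice on CD were profiled in 1 RNA library and 1 TCR table per genotype, each from 2 pooled mice, with a 10x 5′ kit. The authors deposited UMI counts per gene and cell, assigned by Cell Ranger (7.0.1 in the matrix header) on mm10, without normalization and limited to called cells; the annotation release is not given in the sources used here. The deposited TCR tables list contigs per barcode and were used for TRB chains alone. A droplet with at least 2 TRB chains was treated as a possible doublet in an alternative; no doublet caller was run, and doublets were kept.

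A cell was kept if over 200 genes were detected and mitochondrial UMIs stayed under 5%, as in the study's methods. Classes were gated on marker UMIs: at least 2 of Siglech for pDC, 4 of Lyz2, C1qa, C1qb, C1qc and Csf1r for myeloid cells, 3 of Mki67, Top2a, Birc5, Ccna2 and Pclaf for cycling T cells. UMIs were summed per class and library and given as CPM. No test was run, with 1 library per genotype. Intervals are exact (Poisson, conditional binomial or Clopper-Pearson, 95%). With 3 UMIs as the limit that a count of 0 allows, the floor was 0.128 and 0.0794 CPM. Named were the 5 members at each end of a comparison, the 5 with the most UMIs, paralog pairs, Rpsa and the stalk, and 2 genes at each end of a list; the members set beside each other across classes were chosen after their values were seen. Members and lists were chosen with earlier results of these data known. Detection of a gene per cell was compared at an equal depth of 2000 UMIs drawn at random, leaving out shallower cells. Alternatives were no cell filter, gates on cells thinned to 1000 UMIs, T cells by TRB contig, higher gate minimums, removal of droplets with 2 TRB chains or under 5% ribosomal protein UMIs, means over cells, another denominator, TMM scaling (edgeR 4.0.16, R 4.3.3), a log2 size of 1, and, added after the data were seen, class weights of the library labelled WT, removal of barcodes found in both libraries and removal of cells with over 10 Rps27l UMIs. Sequences come from RefSeq on GRCm38.p6. Python 3.11.15, numpy 2.4.6, pandas 2.3.3, scipy 1.17.1 and matplotlib 3.10.9 were used, and the computation was tested on simulated data. Some genes that the naming rule takes are not reported here.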

Additional observations from a re-analysis of the deposited data

Results flagged for a closer look

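The log2 ratio of the ribosomal protein share, library labelled dKO over WT, took opposite signs in T cell classes: 0.0874 in effector and 0.229 in cycling cells, but −0.125 in Treg, −0.117 in other T and −0.0162 in naive-like cells, and −0.208 in myeloid cells. The Treg medians of the libraries labelled WT and dKO were close in cells of at least 2000 UMIs (18.0% and 18.2% up to 4000, 19.6% and 19.7% above), and effector medians were higher in the library labelled dKO in the bins from 1000 UMIs on. Cycling cells, with medians of 3634.5 and 4947 UMIs in the libraries labelled WT and dKO, were not divided by depth. The difference between the classes was not tested, since each genotype has 1 library. Effector cells of the library labelled dKO held 0 droplets under 5% ribosomal protein UMIs, against 29 of 1640 in the library labelled WT.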

How the results depend on the processing

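Of 74 alternatives to the main share ratios and member counts, 41 left the value in place, 33 moved it and 0 changed its sign. The ratio of library labelled dKO over WT in T cells, Treg and effector cells was −0.13, −0.11 and 0.10 with gates on thinned cells, −0.11, −0.11 and 0.063 with T cells taken by TRB contig, −0.15, −0.13 and 0.071 without droplets under 5%, −0.21, −0.17 and 0.10 as a mean over cells, and −0.10, −0.061 and 0.16 after TMM scaling. Higher gate minimums gave −0.057 in Treg and 0.11 in effector cells, and T cells were at −0.14 without droplets with 2 TRB chains and with the other denominator. With class weights of the library labelled WT, T cells were at −0.0064. Naive-like over effector cells gave, for the libraries labelled WT and dKO, 0.63 and 0.48 with thinned gates, 0.59 and 0.46 with higher minimums, 0.64 and 0.50 over cells and 0.69 and 0.54 after TMM, and for WT alone 0.56 by TRB contig and without droplets under 5%, and 0.59 without droplets with 2 TRB chains. Members past the size in T cells numbered 1 with a log2 size of 1 and 1 with those weights, against 3. The pDC ratio changed sign, to −0.0023 without droplets under 5% and −0.13 as a mean over cells. The cycling ratio ranged from 0.12 to 0.31, other T from −0.19 to −0.04, naive-like from −0.05 to −0.01 and myeloid from −0.35 to −0.13. Rps27l ranged from 0.90 to 1.11, Rps29 from −0.59 to −0.38, Rps27 from −0.58 to −0.39 and Rpl3l in pDC from 3.41 to 3.86. The cause of these changes was not tested. Leaving out a replicate was not possible with 1 library per genotype. No paired analysis was possible because each genotype has 1 library and no test was run. Rpl3l in pDC of the library labelled WT rests on 7 UMIs, and the gene met the minimum of the rule only through the library labelled dKO.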
